A study of Mus musculus with 8 samples.

Results

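The 37 genes of the mouse mitochondrial genome were followed in quadriceps muscle of Nup210-/- and Nup210+/+ mice. They are the rows of the deposited table whose gene name begins with mt-, and they make up 37 of its 47643 genes. Of these, 13 encode messengers for subunits of the respiratory chain and the ATP synthase, 2 encode the ribosomal RNAs of the mitochondrial ribosome and 22 encode transfer RNAs. The study prepared polyadenylated RNA from the quadriceps of 4 Nup210-/- and 4 Nup210+/+ mice of the C57BL/6 strain by the labels, backcrossed to C57BL/6J by the methods, 1 library per mouse, to compare the muscle transcriptome with and without the nucleoporin Nup210, a membrane protein of the nuclear pore. The Nup210-/- line is constitutive: exon 2, flanked by loxP sites, was removed by a Cre recombinase expressed from Hprt, so every tissue carries the deletion, while Nup210+/+ mice keep the exon. Age and sex of the sequenced mice are not given in the sources used here.

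Values are TPM, which state the estimated transcripts of a gene among 1000000 transcripts of its library, after correction for transcript length. The number of reads behind a value is unknown, so only the 4 mice of each genotype show how precise it is. From 18185 to 19357 genes were above 0 in a library. Fibre markers such as Ckm (20313 TPM on average in Nup210-/- and 19348 TPM in Nup210+/+) show skeletal muscle in every library, and the heart muscle markers sum to at most 3.19 TPM. Gene-level TPM of Nup210 spanned 8.81 to 11.9 in the Nup210-/- libraries and 5.71 to 10.1 in the Nup210+/+ libraries. A value over all exons does not test for the loss of exon 2, so each direction given below rests on the genotype label of the library. The Nup210+/+ library of replicate 2 stood apart in granulocyte precursor genes, whose 6 markers summed to 382 TPM there and to at most 2.12 TPM in the others.

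Mitochondria keep a small circular genome of their own. Both of its strands are transcribed by the RNA polymerase Polrmt into long precursors, and the transfer RNAs that lie between the other genes mark the places where these precursors are cut into single RNAs. Most messengers then receive poly(A) tails, which for several of them supply the missing letters of the stop codon. Every protein the genome encodes is a membrane subunit of oxidative phosphorylation, and in muscle, a tissue with many mitochondria, these RNAs are among the most abundant of the cell. Over evolution, pieces of the mitochondrial genome have also been inserted into nuclear chromosomes, where they persist as pseudogenes.

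Such an insertion bears directly on these measurements. On chromosome 1 of GRCm38 (mm10), on the minus strand between 24611535 and 24616197, GENCODE M21 annotates 7 unprocessed pseudogenes that match 7 of the 13 messengers at 99% identity or more over at least 250 bases. The copy of mt-Co3, Gm28437 (chr1:24613189-24613971), matched 783 of the 784 bases of the messenger with 0 mismatches, and Gm10925 (chr1:24613974-24614651) matched 678 of the 681 bases of mt-Atp6, also with 0. Gm28661 with mt-Co2, Gm10222 with mt-Nd4l and Gm28439 with mt-Nd4 had 0 mismatches as well over 681, 294 and 876 aligned bases. The opening bases of mt-Co3 and of its copy, printed to show what a sequencing read has to go on, are the same letter for letter:
mt-Co3 start: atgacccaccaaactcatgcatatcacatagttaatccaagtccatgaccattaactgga
Gm28437 start: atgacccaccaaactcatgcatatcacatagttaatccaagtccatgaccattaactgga

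Over their aligned bases, Gm29216 and Gm28438 each differed from their messenger by 1 base. For Gm29216 the alignment starts at base 10 of the copy. Counted from 1 at the 5′ end of the messenger, the substitution was A1066T between mt-Co1 and Gm29216, which covers 483 bases at the 3′ end of that gene, and T3C between mt-Nd3 and Gm28438. The differing base is in capitals in these 4 stretches, from 6390 to 6430 and from 9459 to 9499 of the mitochondrial chromosome and at the matching places on the minus strand of chromosome 1:
mt-Co1 at the mismatch: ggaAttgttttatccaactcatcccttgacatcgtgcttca
Gm29216 at the mismatch: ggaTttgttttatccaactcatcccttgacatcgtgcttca
mt-Nd3 at the mismatch: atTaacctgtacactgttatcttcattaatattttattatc
Gm28438 at the mismatch: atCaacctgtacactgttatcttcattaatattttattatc

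Reads in this study were 75 bases long. Of all 75-base windows of a messenger, the share found letter for letter in another gene model was 99.9% for mt-Co3, 99.5% for mt-Co2, 99.5% for mt-Atp6, 98.7% for mt-Nd4l and 97.8% for mt-Nd3. It was 61.5% for mt-Nd4, 39.8% for mt-Co1, 5.71% for mt-Nd2 and 1.66% for mt-Nd5. For the other 6, mt-Rnr1, mt-Rnr2, mt-Nd1, mt-Atp8, mt-Nd6 and mt-Cytb, no window was shared. The only bases of mt-Co3, mt-Atp6 and mt-Co2 outside their copies are at the 3′ end, shown here with the last codon in capitals, where mt-Co3 ends on a lone T that the poly(A) tail completes:
mt-Co3 end: tctccatttattgatgaggatctT
mt-Atp6 end: ctatatctacatgataatacaTAA
mt-Co2 end: aactgatctgcttcaataattTAA

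Read as deposited, the mitochondrial genes took 27.4, 27.2, 26.4 and 27.1% of all TPM in the Nup210-/- libraries of replicates 1 to 4 and 26.8, 25.02, 25.6 and 27.5% in the Nup210+/+ libraries. The 2 genotypes overlapped, with Nup210+/+ replicate 4 the highest of all and Nup210+/+ replicate 2 the lowest, and the means were 27.04 ± 0.432% and 26.2 ± 1.12% (SD, n = 4 each). The near-identical copies on chromosome 1 held a further 8.69 to 10.98% in Nup210-/- and 8.83 to 9.78% in Nup210+/+. With them added, the share was 38.4, 37.7, 35.1 and 37.4% against 36.2, 34.8, 34.4 and 37.2%, and the genotypes overlapped again. Of the 20 genes with the highest mean TPM, 10 were mitochondrial and 2 were copies, Gm10925 and Gm28437. Since the shares of a library add up to a whole, a higher share of one class lowers the others. No test was made of these sums.

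**Figure D1:**
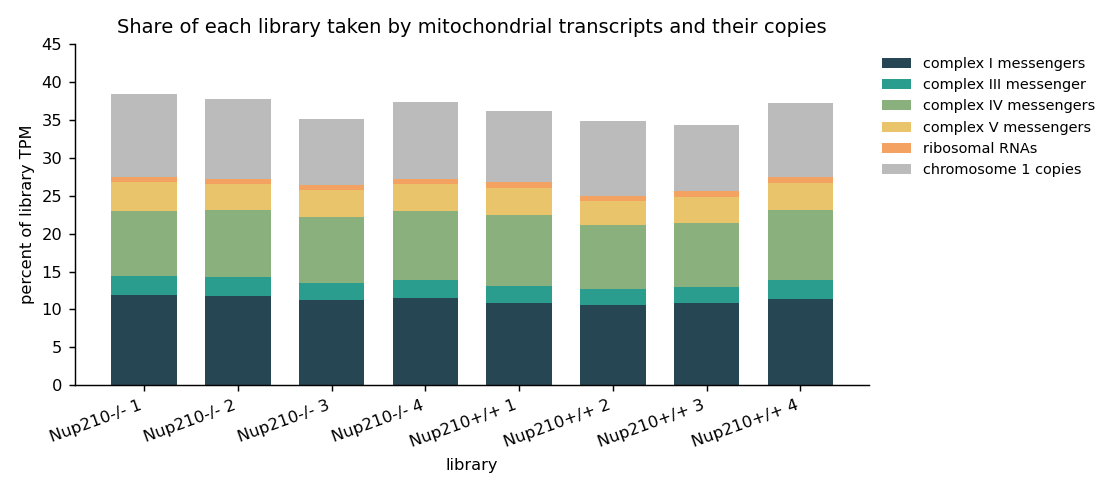
Share of library TPM (percent, vertical axis) taken by the mitochondrial messengers of each respiratory complex, the ribosomal RNAs and the near-identical copies on chromosome 1, stacked for each of the 8 libraries (horizontal axis). The mitochondrial genes reach 26.4 to 27.4% in Nup210-/- and 25.02 to 27.5% in Nup210+/+. With the copies they reach 35.1 to 38.4% and 34.4 to 37.2%.

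By complex, the 7 messengers of complex I, the NADH dehydrogenase at the entrance of the chain, together held 11.2 to 11.9% of TPM in Nup210-/- and 10.6 to 11.4% in Nup210+/+. The 3 messengers of complex IV, the cytochrome c oxidase that passes electrons to oxygen, held 8.61 to 8.99% and 8.41 to 9.33%. Complex III, with mt-Cytb as its mitochondrial subunit, held 2.27 to 2.52% and 2.16 to 2.47%, and the 2 messengers of complex V, the ATP synthase, held 3.46 to 3.77% and 3.06 to 3.54%. All 4 ranges overlapped between genotypes. Adding the copies, per length, moved complex V to 7.81 to 8.96% and 7.58 to 8.13% and complex IV to 12.6 to 13.7% and 12.4 to 13.6%, while complex I stayed between 10.6 and 11.9%.

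Single messengers differed far more from one another than between mice, although a shared precursor carries most of them. As deposited, the highest on the mean TPM of 8 libraries were mt-Co2 (chrM:7013-7696) with 42444 ± 1449 TPM and mt-Co1 (chrM:5328-6872) with 38209 ± 1417 TPM, both subunits of the catalytic core of complex IV. Below them came mt-Nd1 (25191 TPM), mt-Cytb (23613 TPM), mt-Nd4 (21613 TPM) and mt-Nd2 (20706 TPM), each above the next in all 8 libraries. The order was less fixed from there. mt-Nd2 was above mt-Atp8 (19581 TPM) in 6 of 8 libraries, and mt-Atp6 (15377 TPM) was above mt-Nd3 (15252 TPM) in 4 of 8, so neighbours such as these were not separated by the spread. The lowest messengers were mt-Nd4l (10972 TPM), mt-Nd6 (10126 TPM), mt-Nd5 (8558 TPM) and mt-Co3 (7514 TPM). The last of these also had the widest spread, with 5418 to 12160.4 TPM. With the chromosome 1 copies added the order changed, and mt-Atp6 and mt-Co3 took places 1 and 2.

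**Figure D2:**
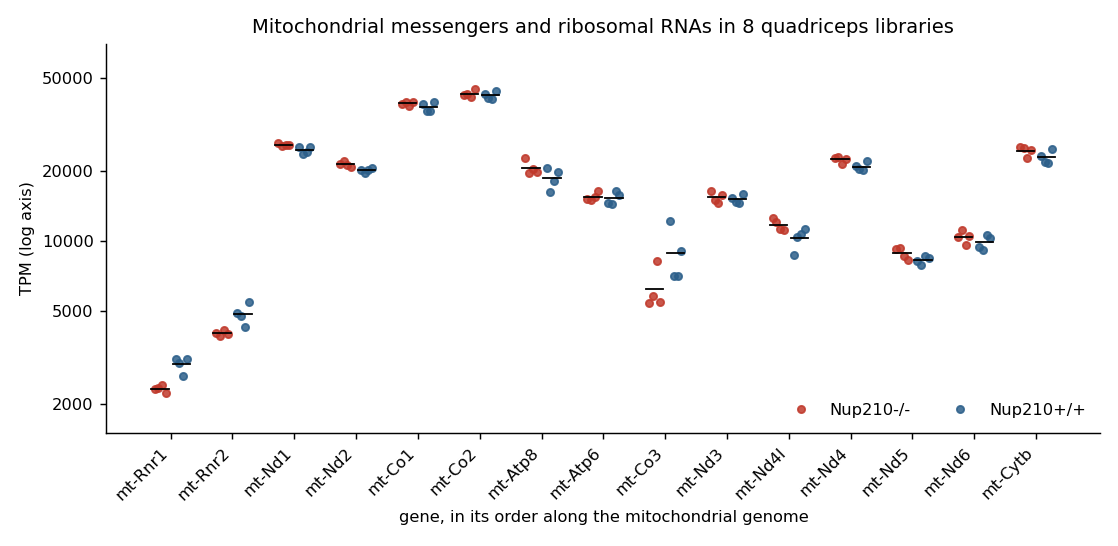
TPM (log axis) of the 13 messengers and 2 ribosomal RNAs, in their order along the mitochondrial genome, with 1 point for each of the 4 libraries of a genotype and a bar at the mean. Both ribosomal RNAs lie lower in all 4 Nup210-/- libraries, and mt-Co3 has the widest spread of the messengers.

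Some neighbouring genes overlap. mt-Atp8 and mt-Atp6, which are made as 1 RNA, share 43 bases, printed in capitals in this stretch of the plus strand from 7912 to 7984:
mt-Atp8/mt-Atp6: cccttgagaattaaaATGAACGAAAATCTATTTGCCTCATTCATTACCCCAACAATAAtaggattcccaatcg

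As deposited, mt-Atp8 stood above mt-Atp6 in all 8 libraries, with a ratio of TPM of 1.097 to 1.495. With Gm10925 added to mt-Atp6 the ratio was 0.2702 to 0.3501, so which of the pair is higher depends on where the shared reads are placed. mt-Nd6, the only messenger encoded on the other strand, overlaps the end of mt-Nd5 by 14 bases. Its ratio to mt-Nd5 was 1.13, 1.197, 1.11 and 1.27 in the Nup210-/- libraries and 1.15, 1.16, 1.23 and 1.22 in the Nup210+/+ libraries, and the genotypes overlapped. The libraries were made with a directional kit, but the sources used here do not state whether the estimation used strand, so RNA from the opposite strand cannot be told apart from mt-Nd6.

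The transfer RNA genes gave no measurement. All 22 were listed at 0 in every library. Their annotated lengths are 59 to 75 bases, so that a 75-base read fits at most exactly, and only within mt-Tl1. A listed 0 here is therefore not a level of the transfer RNAs, and none entered a comparison. The filter on low values, a mean TPM of at least 0.5 over the 8 libraries, kept the 15 messengers and ribosomal RNAs and left out these 22.

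Where reads fit both a messenger and its copy, the deposited estimates divided them unevenly. For the ATP synthase subunit mt-Atp6 (chrM:7927-8607), the copy Gm10925 was at 52139.7, 50447, 42583 and 47282 TPM in the Nup210-/- libraries, with 46275, 45833, 41590.0 and 45679 TPM in the libraries labelled Nup210+/+, against 15008 to 16351 TPM and 14418 to 16389 TPM for mt-Atp6 itself. The pseudogene thus carried 73.3 to 77.6% of the pair in Nup210-/- and 71.7 to 76.1% in Nup210+/+. Gm28437 carried 81.98 to 89.5% and 74.6 to 85.2% of its pair with mt-Co3. At the other end, Gm28439 was listed at 0 in all 8 libraries beside mt-Nd4 and Gm28438 at no more than 0.55 TPM beside mt-Nd3, although their windows were shared too. Gm29216, the partial copy of mt-Co1, lay between 6159 and 12130.5 TPM, and Gm28661, the copy of mt-Co2, between 0.01 and 1968 TPM. The 11 less similar copies elsewhere in the nuclear genome, among them Gm13340 and Gm13341 on chromosome 2 and Gm4076 on chromosome 13, did not exceed 14.1 TPM in any library. The division of reads between gene models of the same sequence is an estimate, and how much RNA came from chromosome 1 cannot be told from these values.

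mt-Co3 (chrM:8607-9390), a core subunit of complex IV, was the 1 messenger whose fitted difference between genotypes changed sign when its copy was added. As deposited it was at 5418, 5783, 8198 and 5436 TPM in the Nup210-/- libraries, with 12160.4, 7025, 7072 and 9022 TPM in the libraries labelled Nup210+/+. The 2 highest values were both from Nup210+/+ libraries, replicates 1 and 4, and Nup210-/- replicate 3 lay inside the Nup210+/+ range. Its copy Gm28437 was at 45953, 43816, 37286 and 43380.2 TPM in the Nup210-/- libraries, with 35788, 40598, 37217 and 39346 TPM in the libraries labelled Nup210+/+. Where mt-Co3 was highest, in Nup210+/+ replicate 1, Gm28437 was lowest. Their sum, weighted by length, was 51312, 49543, 45436 and 48760.5 TPM in Nup210-/- and 47902, 47571, 44241 and 48318 TPM in Nup210+/+. The coefficient of variation within a genotype went from 21.5% and 27.4% for mt-Co3 alone to 5.05% and 3.98% for the sum.

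The same 2 neighbours can be set against each other. The ratio of mt-Co3 to mt-Atp6, which does not depend on the scaling of a library, ranged from 0.332 to 0.834 across the 8 libraries as deposited and from 0.759 to 0.792 with both copies added. Combined with its copy, mt-Atp6 was at 67003, 65232, 57867 and 63425 TPM in Nup210-/- and 60646, 60048, 57796 and 61190.5 TPM in Nup210+/+. On that scale mt-Atp6 and mt-Co3 were the highest messengers in all 8 libraries, above mt-Co2 and mt-Co1, and mt-Co3 moved from place 13 to place 2 of the 15.

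mt-Nd4l (chrM:9877-10173), a small complex I subunit, was at 12535, 12004, 11187 and 11078 TPM in the Nup210-/- libraries, with 8687, 10420.4, 10682 and 11183 TPM in the libraries labelled Nup210+/+. Its copy Gm10222 was at 0 to 0.08 TPM in 6 libraries, at 846 TPM in Nup210-/- replicate 3 and at 2238 TPM in Nup210+/+ replicate 1, the library in which mt-Nd4l was lowest. The sums were 12535, 12004, 12025 and 11078 TPM and 10903, 10420.4, 10682 and 11183 TPM. The genotypes still overlapped, by Nup210-/- replicate 4 alone, which lay below Nup210+/+ replicate 4, and the spread within Nup210+/+ was 3% in place of 10.6%.

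**Figure D3:**
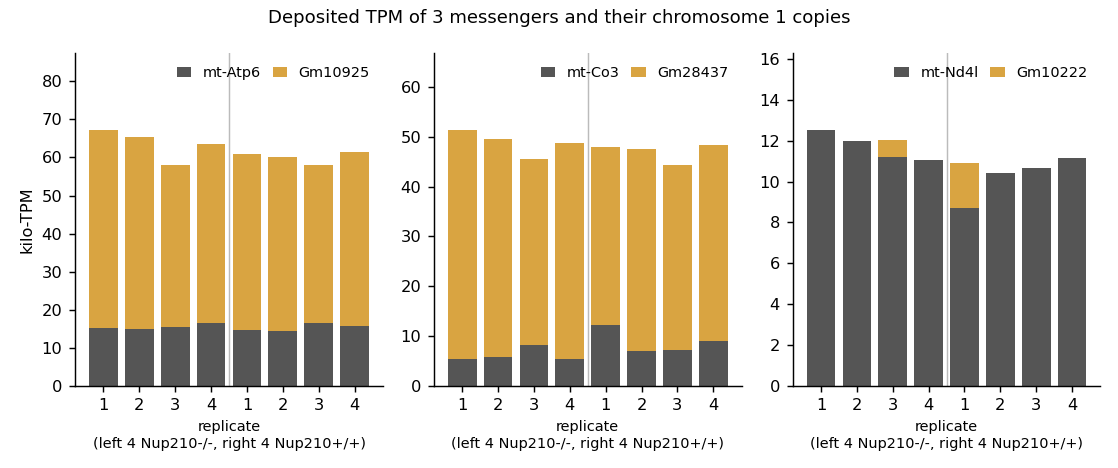
Deposited TPM (vertical axis, in kilo-TPM) of mt-Atp6, mt-Co3 and mt-Nd4l in grey, with the near-identical chromosome 1 copy of each stacked above it, in the 4 Nup210-/- and 4 Nup210+/+ libraries. The lower part of the mt-Co3 bars ranges from 5418 to 12160.4 TPM, while the full bars differ much less in proportion.

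To compare genotypes, each library was scaled by its median ratio to the geometric mean of all libraries over the 15225 genes above 0 in all libraries, a factor between 0.936 and 1.12, and log2(scaled TPM + 1) was fitted with limma across 14229 genes. At an adjusted p of 0.05, 0 of the 15 mitochondrial genes passed, where 0.112% of all genes did (16 genes, 7 higher and 9 lower in Nup210-/-). Adjusted p ranged from 0.288 to 0.668. At an unadjusted p under 0.05 there were 2 higher, mt-Nd4l and mt-Nd5, and 1 lower, mt-Rnr1. The shares over all genes were 7.0% higher and 7.18% lower. Without Nup210+/+ replicate 4 the count was 8 higher and 0 lower, all 8 of them messengers. In that fit 1327 of all 14243 genes were higher and 1354 lower at an unadjusted p under 0.05 (limma). Still 0 of the 15 passed the adjusted threshold (limma, lowest adjusted p = 0.114). With any other single library left out, from 0 to 4 of the 15 were at an unadjusted p under 0.05 (limma).

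The messengers nonetheless leaned one way. Fitted log2 fold changes (Nup210-/- over Nup210+/+) were above 0 for 12 of 13, from 0.11 for mt-Co2 to 0.29 for mt-Nd4l, and -0.40 for mt-Co3. With the copies added all 13 were above 0, and mt-Co3 stood at 0.15 (95% interval -0.11 to 0.41, limma adjusted p = 0.584). The median over the messengers was 0.17 in both fits, beside a median of -0.01 over all genes tested. These 13 values are not independent, because the messengers come from shared precursors and share the scaling of their libraries, and no p is given for them as a group. Skeletal muscle fibre markers leaned the same way in the main fit, with all 9 above 0. Of these, 3 were at an unadjusted p under 0.05 (limma), where 7.0% of all genes were higher. Of the 9 genes of slow and oxidative fibres, 2 were above 0 and 7 below. The lean was thus not particular to the mitochondrial messengers. On TPM as deposited, where the median of all genes was -0.08, the median of the messengers was 0.08. Leaving out 1 library moved some of these values by over 1.5 times, and none then passed an adjusted p of 0.05 (limma). mt-Co3 stood at -0.23 without Nup210+/+ replicate 1. Without Nup210+/+ replicate 3, mt-Co2 stood at 0.058, mt-Co1 at 0.090, mt-Nd3 at 0.070 and mt-Cytb at 0.13, against 0.11, 0.15, 0.12 and 0.19 with it. mt-Co2 and mt-Atp6 were at 0.071 and 0.073 without Nup210-/- replicate 4, mt-Nd3 at 0.083 without Nup210-/- replicate 1 and mt-Co2 at 0.17 without Nup210+/+ replicate 4.

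mt-Nd4l had the largest positive value in the main fit, 0.29 (95% interval 0.04 to 0.54, limma adjusted p = 0.288). With the copies added it stood at 0.2355 (95% interval 0.04 to 0.44, limma adjusted p = 0.2803), just below mt-Atp8 at 0.238. mt-Nd5, a proton-pumping membrane subunit of complex I, was at 9253, 9276, 8608 and 8267 TPM in the Nup210-/- libraries, with 8185, 7879, 8592 and 8403 TPM in the libraries labelled Nup210+/+. The groups overlapped through Nup210-/- replicate 4. Its fitted value was 0.19 (95% interval 0.01 to 0.38, limma adjusted p = 0.337). For mt-Nd1 and mt-Nd2, further membrane subunits of complex I, the deposited TPM did not overlap. mt-Nd1 (chrM:2751-3707) was at 26325, 25418, 25714 and 25771 TPM in the Nup210-/- libraries, with 25298, 23637, 23971 and 25392 TPM in the libraries labelled Nup210+/+. mt-Nd2 (chrM:3914-4951) was at 21424, 22081, 21076 and 20798 TPM in the Nup210-/- libraries, with 20173, 19484, 20082 and 20529 TPM in the libraries labelled Nup210+/+. Each Nup210-/- library was above each Nup210+/+ library, by margins that were small beside the levels. The difference of means was 1232 TPM for mt-Nd1 and 1278 TPM for mt-Nd2. After scaling both overlapped. Their fitted values were 0.17 (95% interval -0.06 to 0.39, limma adjusted p = 0.468) and 0.18 (95% interval -0.02 to 0.39, limma adjusted p = 0.3895).

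The other messengers overlapped on TPM and on scaled TPM. mt-Nd4 was at 22387 ± 731 TPM in Nup210-/- against 20838 ± 839 TPM for Nup210+/+ (SD, n = 4 each), mt-Cytb at 24395 ± 1125 and 22831 ± 1425 TPM, and mt-Atp8 at 20526 ± 1394 and 18635 ± 1949 TPM. mt-Co2 and mt-Co1, the most abundant as deposited, differed by 508 and 1331 TPM, less than 1 SD of either genotype for mt-Co2. mt-Nd3 was at 15415 ± 849.6 and 15089 ± 568 TPM and mt-Nd6 at 10389 ± 633 and 9862 ± 689 TPM. For these 7 and for mt-Atp6 the 95% intervals of the fitted log2 fold change all included 0, and their upper ends lay between 0.32 and 0.52, so differences of that size were not excluded by these data.

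**Figure D4:**
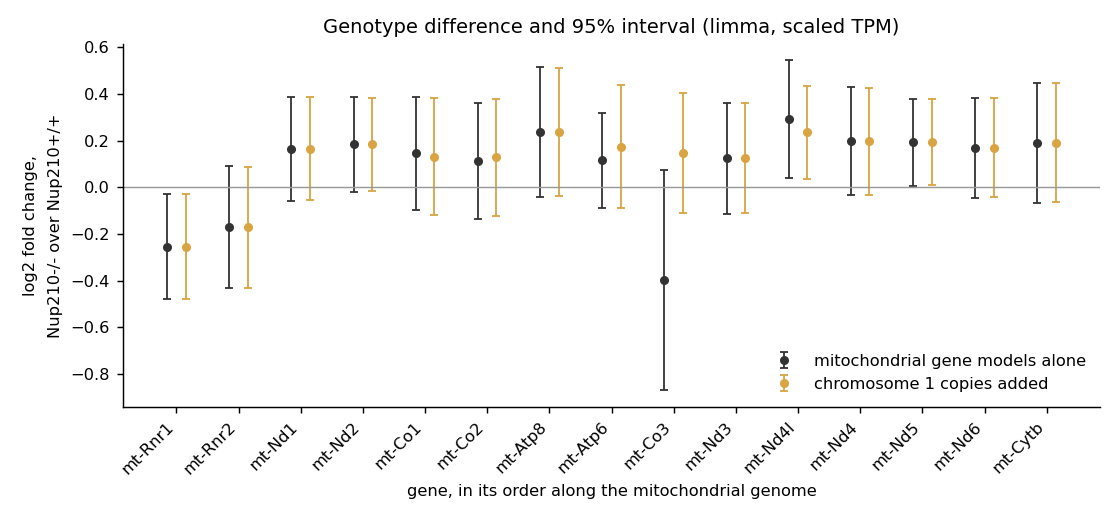
Fitted log2 fold change of each gene, Nup210-/- over Nup210+/+, with its 95% interval (limma, scaled TPM), for the mitochondrial gene models alone and with the chromosome 1 copies added. mt-Co3 moves from -0.40 to 0.15 when its copy is added, and the ribosomal RNAs lie below 0 in both fits.

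The ribosomal RNAs went the other way from the messengers. mt-Rnr1 (chrM:70-1024), the RNA of the small subunit of the mitochondrial ribosome, was at 2312, 2334, 2401 and 2221 TPM in the Nup210-/- libraries, with 3108, 2972, 2622 and 3121 TPM in the libraries labelled Nup210+/+. mt-Rnr2 (chrM:1094-2675), that of the large subunit, was at 4025, 3902, 4134 and 3973 TPM in the Nup210-/- libraries, with 4919, 4737, 4253 and 5448 TPM in the libraries labelled Nup210+/+. In both cases the highest Nup210-/- library was below the lowest Nup210+/+ library, replicate 3. The means of mt-Rnr1 were 2317 ± 74.04 and 2956 ± 232 TPM, a ratio of 0.784. Those of mt-Rnr2 were 4009 ± 97.6 and 4839.5 ± 494 TPM, a ratio of 0.828 (SD, n = 4 each). Neither gene shares a 75-base window letter for letter with another annotated gene model, and no copy was added to either. Gm20594, which matched 439 bases of mt-Rnr2 at 88.4% identity, was at most at 1.09 TPM. Shorter or inexact matches of reads were not examined.

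Without overlap on deposited TPM there were thus 2 lower and 2 higher of the 15 genes, where 6.87% of all genes tested were lower and 1.54% higher in this sense. The two-sided exact permutation test gave p = 0.0286 for each of these 4 genes, the smallest value that the 70 labelings of 4 against 4 libraries allow, with no adjustment for the 15 genes compared. After scaling, 0 of 15 were without overlap, against 9.38% of all genes in either direction, and the smallest exact p was 0.0571. Scaled, mt-Rnr1 was at 2444, 2365, 2391 and 2374 in Nup210-/- and 3025, 2868, 2335 and 3271 in Nup210+/+, so that only Nup210+/+ replicate 3, the library with the largest scaling factor, reached the Nup210-/- values. The exact p was 0.143 for mt-Rnr1 and 0.229 for mt-Rnr2. The fitted values were -0.25 (95% interval -0.48 to -0.03, limma adjusted p = 0.3004) and -0.17 (95% interval -0.43 to 0.09, limma adjusted p = 0.523). On TPM as deposited they were -0.35 (95% interval -0.49 to -0.21, limma adjusted p = 0.0849) and -0.27 (95% interval -0.43 to -0.11, limma adjusted p = 0.1805). Single libraries moved both. Without Nup210+/+ replicate 3, mt-Rnr1 stood at -0.35 (limma adjusted p = 0.0941) and mt-Rnr2 at -0.27 (limma adjusted p = 0.281). Without Nup210+/+ replicate 4 they stood at -0.19 (limma adjusted p = 0.311) and -0.075 (limma adjusted p = 0.692). Over all 29 alternatives the adjusted p ranged from 0.0849 to 0.519 for mt-Rnr1 and from 0.1805 to 0.715 for mt-Rnr2.

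A ratio within a library is free of scaling. Against the summed messengers, mt-Rnr1 amounted to 0.863, 0.879, 0.932 and 0.837% in Nup210-/- and 1.197, 1.23, 1.05 and 1.17% in Nup210+/+. mt-Rnr2 amounted to 1.502, 1.47, 1.604 and 1.498% and 1.89, 1.95, 1.71 and 2.05%. Both were lower in every Nup210-/- library. With the copies added to the messengers the 2 ribosomal RNAs together were 1.71 to 1.92% and 2.08 to 2.41%, again without overlap. Against mt-Nd1 alone, the next messenger on the genome and free of shared windows, the ratio of mt-Rnr1 was 0.0878, 0.0918, 0.0934 and 0.0862 in Nup210-/- and 0.123, 0.126, 0.109 and 0.123 in Nup210+/+. These ratios were chosen after the values were seen and are given without a test. The ratio of mt-Rnr2 to mt-Rnr1 overlapped between genotypes, with 1.67 to 1.79 and 1.58 to 1.75.

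**Figure D5:**
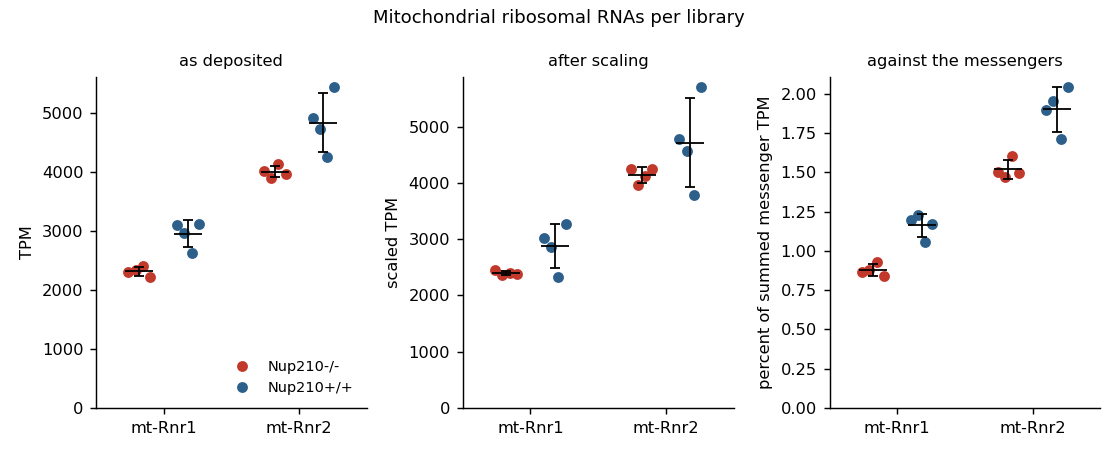
mt-Rnr1 and mt-Rnr2 in each library as deposited (TPM), after scaling (scaled TPM) and as a percentage of the summed messenger TPM, with the mean and SD of 4 libraries. The genotypes are apart in the left and right panels and overlap after scaling through Nup210+/+ replicate 3.

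Since the libraries were made from poly(A)-selected RNA, how a library samples these RNAs depends on their tails. These are long on most messengers, though not on every one, and short on the ribosomal RNAs. The nuclear 18S ribosomal RNA row Rn18s-rs5, an RNA that poly(A) selection should remove, was at 1246, 821, 1518 and 994 TPM in the Nup210-/- libraries, with 1483, 907, 943 and 739 TPM in the libraries labelled Nup210+/+. Its groups overlapped. The efficiency of the selection itself was not tested.

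Sums of marker genes for other cells were compared in the same libraries. The 9 fibre markers summed to 93969 to 100884 TPM in Nup210-/- and 87332 to 93296 TPM in Nup210+/+, without overlap. The 10 leukocyte markers summed to 134 to 150.4 TPM and 162 to 320.3 TPM, again without overlap, and 6 of the 10 were lower at an unadjusted p under 0.05 (limma), where 7.18% of all genes were. The adipocyte sums were 522 to 826 and 579.5 to 1361 TPM, with the highest in Nup210+/+ replicate 3. After scaling, 7 of 13 messengers were lowest in that library, which has the largest scaling factor (1.12). On TPM as deposited, 3 of 13 were lowest there and 7 of 13 in Nup210+/+ replicate 2. Red cell genes spanned 879.7 to 2688 and 1216 to 5305 TPM, and the 9 genes of slow and oxidative fibres, which are rich in mitochondria, 1647 to 2785 and 1774 to 2870.5 TPM. Brown fat markers reached at most 16.8 TPM. No marker of these lists was at 0 in every library except Myl7 of the heart muscle list. The part of these cells in the mitochondrial values was not tested. In whole tissue, fewer cells of a type and less RNA per cell cannot be told apart.

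The nucleus encodes the machinery that makes and reads the mitochondrial RNAs. Of 53 such genes, all tested, 0 passed an adjusted p of 0.05 (limma, lowest adjusted p = 0.197). At an unadjusted p under 0.05, 2 (3.77%) were higher and 1 (1.89%) lower, where 7.0% and 7.18% of all genes were. Counts this small do not set the list apart from the background. The median log2 fold change was 0.05, beside -0.01 over all genes, with 34 values above 0 and 19 below. On TPM as deposited, 18 of the 53 means were higher and 35 lower in Nup210-/-. The polymerase Polrmt was at 15.3 ± 5.36 and 15.5 ± 0.2596 TPM in Nup210-/- and Nup210+/+ (SD, n = 4 each). Tfam, which packs the genome and starts its transcription, was at 46.2 ± 4.03 and 51.97 ± 7.598 TPM, and the initiation factor Tfb2m at 47.6 ± 9.32 and 44.9 ± 3.12 TPM. Lrpprc and Slirp, partners that stabilise the messengers, were at 36.9 ± 2.02 and 37.9 ± 2.795 TPM and at 98.1 ± 12.6 and 96.5 ± 7.84 TPM. For all 5 the means differed by less than 1 SD of the more variable genotype.

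The 3 genes at an unadjusted p under 0.05 are given as values. Pnpt1, a polynucleotide phosphorylase that degrades mitochondrial RNA, was at 11.1, 11.6, 11.6 and 11.2 TPM in Nup210-/- and 13.5, 14.3, 14.6 and 13.2 TPM in Nup210+/+, lower in each Nup210-/- library. Its log2 fold change was -0.18 ± 0.06 (SE, limma adjusted p = 0.215). Elac2, which cuts transfer RNAs from the precursor at their 3′ ends, was at 11.7 ± 1.25 and 10.1 ± 1.25 TPM, with a log2 fold change of 0.28 ± 0.08 (SE, limma adjusted p = 0.197). Polg, the polymerase that replicates the genome, was at 22.3 ± 4.55 and 16.8 ± 2.94 TPM, with 0.48 ± 0.18 (SE, limma adjusted p = 0.282). The groups of Elac2 and Polg overlapped on deposited TPM. After scaling Polg still overlapped, while each Nup210-/- library was above each Nup210+/+ library for Elac2. Next by p were Grsf1, an RNA granule protein (88.8 ± 4.62 and 85.2 ± 5.17 TPM), the protease Lonp1 (41.2 ± 2.02 and 40.3 ± 2.53 TPM), the coactivator Ppargc1b (4.04 ± 0.534 and 3.54 ± 1.14 TPM) and Fastkd3 (5.67 ± 0.332 and 5.23 ± 1.42 TPM). The poly(A) polymerase Mtpap was at 12.7 ± 0.501 and 13.3 ± 2.14 TPM, and Ppargc1a and Esrra, regulators of mitochondrial content, were at 10.3 ± 1.81 and 12.3 ± 3.85 TPM and at 53.1 ± 1.65 and 55.2 ± 6.74 TPM.

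Messengers for the nuclear-encoded subunits join those of the mitochondrial genome in the same complexes. Of 72 tested, 0 passed an adjusted p of 0.05 (limma, lowest adjusted p = 0.4301) and 0 passed an unadjusted p under 0.05, where 7.0% of all genes were higher and 7.18% lower. Of the list, 65 had a log2 fold change above 0 and 7 below, with a median of 0.06, against 0.17 for the mitochondrial messengers. This split depended on the scaling: on TPM as deposited, 16 of the 72 means were higher and 56 lower in Nup210-/-. As a sum they took 3.45 to 3.72% of TPM in Nup210-/- and 3.41 to 3.84% in Nup210+/+, with means of 3.55 and 3.65%, so 13 mitochondrial messengers outweighed the 72 nuclear ones in every library. The lowest fitted values were those of Cox8b (-0.10), Uqcrh (-0.04) and Cox7a2 (-0.04), and the highest those of Atp5g2 (0.40), Cox7c (0.18) and Ndufc1 (0.17), all on the log2(scaled TPM + 1) scale. Whether the mitochondrial and the nuclear subunits differed from each other was not tested.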

How the data were processed

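RNA-seq was made from quadriceps of 8 mice. The authors selected poly(A) RNA, trimmed reads with cutadapt 2.3, aligned them to mm10 with STAR 2.7.0d, estimated expression with RSEM 1.3.1 on Ensembl annotation, and deposited TPM per gene and library; TPM keep no depth. Members were the rows named mt-; the members and lists were chosen with earlier results of these data known. Gene models, lengths and sequences were from GENCODE M21 (GRCm38); copies were found with BLAST 2.17.0 (near-identical: at least 99% over 250 bases). TPM were scaled by median of ratios, and log2(scaled TPM + 1) of genes averaging 0.5 TPM or more was fitted with limma 3.58.1 (R 4.3.3; eBayes with trend) and Benjamini-Hochberg adjustment. Single genes were compared with exact permutation tests. The fit was checked on simulated data. Copies were added to their messenger in proportion to length, an alternative chosen after seeing the data. Genes were named by rule: all messengers and ribosomal RNAs, 9 set nuclear expression genes and the 6 others of lowest p, the 3 lowest and 3 highest respiratory chain genes, and copies above the filter; Rn18s-rs5, Gm28438 and Gm28439 were added after their values were seen. Scalings, filters, pseudocounts, weights, the replicate block and each library left out were tried.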

Additional observations from a re-analysis of the deposited data

Results flagged for a closer look

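A library was marked when its gap to the nearest of the other 3 of its genotype exceeded Dixon's 95% limit for 4 values. Of 68 groups examined, 5 were marked. For independent groups of normally distributed values, chance alone marks about 1 in 20. The groups here share values, and those of Gm10222 are mostly at or near 0, so this rate does not apply strictly. mt-Co3 in Nup210-/- replicate 3 was at 8198 TPM, with the others at 5418 to 5783 TPM. The copy Gm10925 in Nup210+/+ replicate 3 was at 41590.0 TPM, below the others at 45679 to 46275 TPM. The copy Gm10222 was at 846 TPM in Nup210-/- replicate 3, with the others listed at 0, and at 2238 TPM in Nup210+/+ replicate 1, with the others at 0 to 0.08 TPM. The 2 ribosomal RNAs in Nup210-/- replicate 3 amounted to 1.92% of the messengers with copies added, above the others at 1.71 to 1.72%. In 3 of these 5 groups the marked library was Nup210-/- replicate 3, whose chromosome 1 copies took 8.69% of TPM, the lowest of the 8 libraries.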

How the results depend on the processing

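The count of mitochondrial genes past an adjusted p of 0.05 (limma) was 0 under every alternative run, as were the counts of both nuclear lists, and the number at an unadjusted p under 0.05 ran from 0 to 8 of 15, the highest without Nup210+/+ replicate 4. The sign of the fold change held for 14 of the 15 genes under all 29 alternatives. For mt-Co3, -0.40 turned to 0.15 with its copy added, to 0.15 with the copy and the replicate block, and to 0.11, 0.15, 0.20, 0.13, 0.16, 0.15, 0.080 and 0.20 with the copy and each of the 8 libraries left out in turn. Its share of the messengers differed by -1.096 percentage points (Nup210-/- minus Nup210+/+) as deposited and by -0.185 with copies added. Over all genes, 16 calls became 1 with genes of any TPM, 27 at a mean TPM of 1 or more, 7 with upper-quartile scaling, 84 with library weights, 0 without the trend, 0 with the replicate block and 0 to 10 with each library left out, and the causes were not tested. For the 0 calls with the block, 888 and 962 genes were higher and lower at an unadjusted p under 0.05, and without the trend 887 and 1065. Higher and lower calls were 7 and 9 with median-of-ratios scaling, 2 and 12 on TPM as deposited, 0 and 7 with upper-quartile scaling and 2 and 10 with TPM rescaled without the mitochondrial genes. Replicate numbers come from the labels of different mice. Over all genes, the deviations of same-numbered libraries from their genotype means correlated at -0.0329 to 0.0857. A correlation of this kind cannot show whether same-numbered mice were handled together, so a shared batch stays unknown. With the replicate block, 7 of the 15 mitochondrial genes were at an unadjusted p under 0.05 (limma), against 3 without it. Depth is unknown.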
